A study of Mus musculus with 14 samples.

Results

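The gene of the transcription factor p53, Trp53, and 9 of its established target genes were followed in mouse kidneys before and after renal ischemia-reperfusion injury (IRI), a model of acute kidney injury (AKI) in which blood flow is stopped and then restored. The 10 genes (Trp53, Mdm2, Cdkn1a, Ccng1, Bax, Bbc3, Trp53inp1, Phlda3, Sesn2 and Gdf15) were chosen by symbol from the 24411 genes listed in the count tables, and all 10 passed the filter on low counts that left 14300 genes to test. All kidneys came from male C57/B6 mice aged 8 weeks. There were 4 libraries at day 0, which the library names call controls with no word on sham surgery, 5 libraries at day 1 after IRI and 5 libraries at day 3 after IRI. None of the sources used here names a transgene, a drug or a further allele, and none says whether the numbered libraries of a day came from separate animals, so the p-values measure the spread between these libraries, which may be partly technical. Levels are given in CPM, a library's reads on a gene relative to its reads on all genes with edgeR's TMM scaling, and a change was called where edgeR's quasi-likelihood test gave an adjusted p-value (Benjamini-Hochberg over the 14300 genes) under 0.05.

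In resting cells p53 is made and destroyed continuously, because the ubiquitin ligase MDM2 binds it and marks it for degradation. DNA damage, hypoxia and other stresses free p53 from MDM2, so that its activity is set largely at the level of the protein, and p53 then switches on genes for cell cycle arrest, apoptosis, DNA repair and stress signaling, among them Mdm2 itself. In the injured kidney, tubular cells are known to induce p53 and its target p21, the product of Cdkn1a. Sesn2 and Gdf15 also answer to the integrated stress response, a separate pathway run by the transcription factor ATF4.

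The p53 protein binds DNA as a tetramer at paired half-sites of 10 bases. RefSeq promoter windows of GRCm38.p6, reaching from 250 bases before to 50 bases after each annotated start, were matched by symbol for 9 of the 10 genes (13 windows). The p53 half-site occurred in at least 1 window of 5 of them (5 of the 13 windows), and in 8.36% of all 32851 windows of that length. The half-site motif equals its own reverse complement, so a search of one strand covers both. A pair of exact half-sites at most 13 bases apart occurred in a window of Cdkn1a alone among the 9 genes, and in 0.0731% of all windows. Under another definition, set after the sequences had been seen, half-sites had to be adjacent, with at most 1 mismatch outside their core C and G. Such a run of 20 bases occurred in a window of Cdkn1a, a window of Ccng1 and 0.067% of all windows. The stretches below are shown because they include a member called higher on both days (Cdkn1a), a member called on neither (Ccng1), the gene of p53, its feedback inhibitor and an apoptotic effector. Capitals mark the 20-base run in Cdkn1a (chr17:29090903-29090972, plus strand) and Ccng1 (chr11:40755437-40755506, minus strand), and a single half-site in Mdm2 (chr10:117710910-117710969, minus strand), Trp53 (chr11:69580259-69580318, plus strand) and Bax (chr7:45467065-45467124, minus strand).
Cdkn1a: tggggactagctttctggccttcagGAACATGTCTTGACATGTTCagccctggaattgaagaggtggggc
Ccng1: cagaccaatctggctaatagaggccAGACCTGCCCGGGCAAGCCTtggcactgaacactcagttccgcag
Mdm2: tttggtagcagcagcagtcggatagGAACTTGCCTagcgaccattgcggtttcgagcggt
Trp53: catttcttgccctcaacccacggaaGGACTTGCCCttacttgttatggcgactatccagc
Bax: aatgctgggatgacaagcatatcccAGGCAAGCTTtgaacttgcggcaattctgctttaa
The run in Cdkn1a begins at base -51 and that in Ccng1 at base -195 from the start of its RefSeq window's transcript. The half-sites begin at base -186 in Mdm2, -75 in Trp53 and -201 in Bax. Bbc3, Gdf15, Sesn2 and Phlda3 had windows without the half-site, and Trp53inp1 had no window. A match describes the letters only, and sites outside the windows were not looked for.

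Reads on genes ranged from 12485579 to 20476979 per library, and a member held between 27 reads (Bbc3 at day 0) and 12244 reads (Cdkn1a at day 1) in a single library. Bbc3 and Phlda3 had the fewest reads, at most 135 and 426, and so the largest counting error. From 99.27% (Bbc3) to 99.99% (Sesn2) of each member's reads lay on its annotated strand. The annotation places other genes across Bax, Sesn2 and Cdkn1a (Gm45808 and Gm12981 on the same strand, AC167363.2 on the opposite strand), none of which the count tables list. Library names carry a number of 1 digit (called here the 1-digit set) or of 3 digits (the 3-digit set). The 3-digit set holds replicates 1 and 2 of day 1 and replicates 1, 2 and 3 of day 3, and every other library, with the whole of day 0, belongs to the 1-digit set. No source used here says what this number format marks. It is treated as a possible technical batch, and comparisons of days are also given within each set for the 10 genes and the lists of p53 and stress response genes. Because day 0 lacks a 3-digit set, injury and number format cannot be told apart when the 3-digit set is held against day 0.

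At day 1 after IRI, 6 of the 10 genes were higher than at day 0 and 0 were lower (42.1% of all genes tested were called in either direction, 23.3% higher and 18.7% lower). The 6 were Cdkn1a, Gdf15, Bbc3, Mdm2, Phlda3 and Bax. At day 3, 3 of the 10 were higher and 0 lower, namely Cdkn1a, Gdf15 and Phlda3 (33.3% of all genes called, 19.5% higher and 13.8% lower). The median log2 fold change of the 10 genes was 0.90 at day 1 and 0.48 at day 3, against 0.01 and 0.05 over all genes tested. Every library of day 1 lay above every library of day 0 in 5 of the 10 genes (21.5% of all genes tested), and every library of day 3 in 4 of them (17% of all genes). Both comparisons share the 4 day 0 libraries. In the 1-digit set of day 1, 5 members were higher and 0 lower than at day 0 (58.5% of all genes called, 28.9% higher and 29.6% lower), and in the 3-digit set 5 were higher and 1 lower (41.6% called, 22.6% higher and 19% lower). At day 3, 3 were higher and 1 lower in the 1-digit set (53.7% called, 28.6% higher and 25.1% lower), and 4 were higher and 0 lower in the 3-digit set (32.4% called, 19.1% higher and 13.3% lower). In whole kidney, a change in RNA per cell and a change in the number of cells of a type cannot be told apart.

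**Figure D1:**
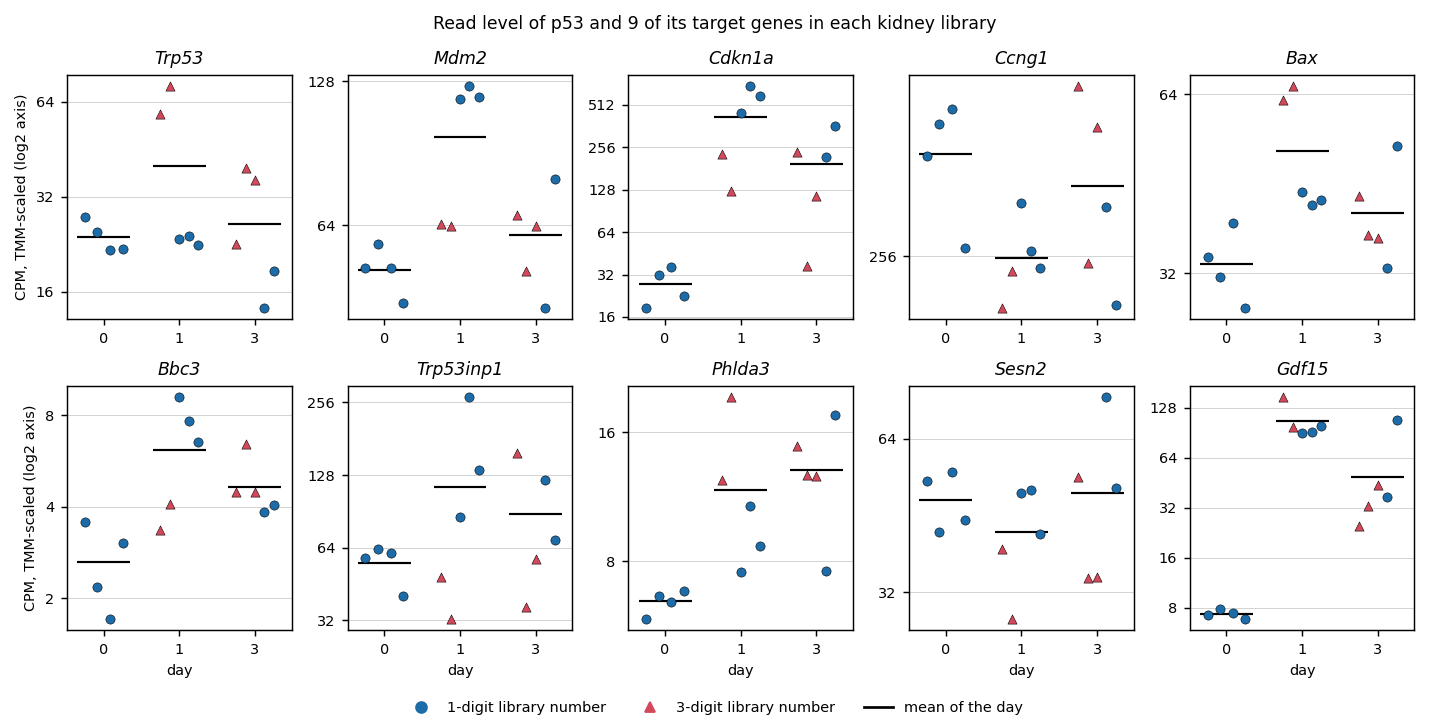
Level of each of the 10 genes in every library (CPM, log2 axis, each panel with its own range) by day after IRI, with circles for 1-digit and triangles for 3-digit library numbers and a bar at the mean of the day. Cdkn1a rose from a mean of 27.3 CPM at day 0 to 419 CPM at day 1, while the 3 1-digit libraries of day 1 have Trp53 levels of 22.5 to 23.9 CPM, within the range of day 0.

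Trp53 (ENSMUSG00000059552.13, chr11:69580359-69591873, plus strand of GRCm38, protein coding) encodes p53 itself. At day 0 its level was 27.6, 24.7, 21.6 and 21.8 CPM in replicates 1 to 4. At day 1 it was 58.6 and 72.0 CPM in the 3-digit set and 23.4, 23.9 and 22.5 CPM in the 1-digit set. At day 3 it was 22.7, 39.6 and 36.2 CPM in the 3-digit set and 14.2 and 18.6 CPM in the 1-digit set. The day 1 libraries thus fell in separate ranges by format, the 1-digit set inside the range of day 0 and the 3-digit set above it. Neither day was called against day 0 with the formats pooled (log2 fold change 0.75, standard error 0.38, adjusted p = 0.128 at day 1, and 0.14, standard error 0.38, adjusted p = 0.802 at day 3, edgeR). Within the formats the log2 fold change at day 1 was -0.04 in the 1-digit set (adjusted p = 0.876) and 1.45 in the 3-digit set (adjusted p = 0.000119). At day 3 it was -0.55 in the 1-digit set (adjusted p = 0.0427, lower than day 0) and 0.46 in the 3-digit set (adjusted p = 0.0636).

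Mdm2 (ENSMUSG00000020184.15, chr10:117688875-117710758, minus strand) encodes the ubiquitin ligase that holds p53 down, and is itself a target in a feedback loop. It was measured at 52.0, 58.5, 52.0 and 44.0 CPM at day 0. The day 1 libraries gave 64.3 and 63.8 CPM with 3-digit numbers and 118, 125 and 119 CPM with 1-digit numbers. At day 3 the levels were 67.3, 51.3, 63.7, 43.0 and 79.8 CPM in replicates 1 to 5. All 5 libraries of day 1 lay above day 0, and the 3 with 1-digit numbers lay far above the pair with 3-digit numbers. The rise at day 1 was 1.90-fold (log2 fold change 0.92, standard error 0.24, adjusted p = 0.00682, edgeR), and it was a log2 fold change of 1.22 in the 1-digit set (adjusted p = 7.5e-05) against 0.31 in the 3-digit set (adjusted p = 0.224). At day 3 Mdm2 gave 0.24 against day 0 (adjusted p = 0.438), with libraries on both sides of the day 0 range.

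Cdkn1a (ENSMUSG00000023067.14, chr17:29090976-29100727, plus strand) encodes p21, the cyclin-dependent kinase inhibitor through which p53 arrests the cell cycle. Its day 0 levels were 18.5, 31.7, 36.4 and 22.4 CPM. At day 1 the 3-digit set had 229 and 126 CPM and the 1-digit set 446, 699.8 and 593 CPM. At day 3 the 3-digit set had 236, 37.1 and 116 CPM and the 1-digit set 218 and 362 CPM. No library of either day overlapped day 0, although replicate 2 of day 3, at 37.1 CPM, stood just above the highest library of day 0. Cdkn1a was 15.4-fold higher at day 1 (log2 fold change 3.94, standard error 0.64, adjusted p = 0.000411) and 7.11-fold higher at day 3 (2.83, standard error 0.60, adjusted p = 0.0033) in edgeR's test. It was higher within both formats on both days, with log2 fold changes of 4.41 and 3.41 in the 1-digit set and 2.70 and 2.25 in the 3-digit set of day 1 and day 3. The call held without any single library, with log2 fold changes of 3.68 to 4.17 at day 1 and of 2.49 to 3.10 at day 3.

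Per kilobase of merged exons, Cdkn1a ranked 6 of the 10 genes at day 0 (7.67 ± 2.32 CPM per kilobase, SD, n = 4) and stood highest at day 1 (118 ± 67.8, n = 5), where its spread took in the level of the next gene, Ccng1 (72.3 ± 9.73, n = 5). That order held in the 1-digit set of day 1 (163 ± 35.8 for Cdkn1a and 77.2 ± 9.22 for Ccng1, n = 3). In the 3-digit set Cdkn1a, at 49.9 ± 20.6, came after Gdf15, at 66.7 ± 19.7, and Ccng1, at 65.1 ± 5.78 CPM per kilobase (n = 2), with overlapping spreads. Ccng1 was the highest of the 10 at day 0, at 103 ± 20.3 CPM per kilobase (n = 4), far above Bax at 21.0 ± 2.91. At day 3 Ccng1 (92.7 ± 28.9, n = 5) and Cdkn1a (54.6 ± 34.8, n = 5) again overlapped in their spread. Gdf15 moved from rank 9, at 3.97 ± 0.236 CPM per kilobase, next to Phlda3 (4.14 ± 0.269) at day 0, to rank 3 at day 1 (57.1 ± 13.3). Bbc3 was lowest on all 3 days, with 1.23 ± 0.393, 2.90 ± 1.15 and 2.19 ± 0.485 CPM per kilobase.

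Ccng1 (ENSMUSG00000020326.7, chr11:40748552-40755311, minus strand) encodes cyclin G1, a p53 target that acts in the MDM2 feedback loop. It was measured at 361, 403, 424 and 263 CPM at day 0. At day 1 the values were 214, 243, 307, 260.3 and 245 CPM. At day 3 they were 459, 249.6, 399, 303 and 217 CPM. The days overlapped, and 4 of the 5 libraries of day 1 lay below the lowest library of day 0. Its log2 fold change at day 1 was -0.51 (standard error 0.21, adjusted p = 0.0671, edgeR) and at day 3 -0.16 (standard error 0.22, adjusted p = 0.596). In the 3-digit set of day 1 it was lower than at day 0 (log2 fold change -0.67, adjusted p = 0.0466), and without replicate 4 of day 0 the pooled difference at day 1 was called as well (-0.64, adjusted p = 0.0387). It was also called without replicate 1 of day 3 (-0.51, adjusted p = 0.0484), with total counts (-0.54, adjusted p = 0.0498) and with only the 2 days compared (-0.499, adjusted p = 0.0251).

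Both genes of apoptosis, Bax and Bbc3, were called higher at day 1 with the formats pooled, but each in only 1 of the sets. Bax (ENSMUSG00000003873.11, chr7:45461697-45466898, minus strand) encodes the protein that opens the outer mitochondrial membrane. Its levels were 34.1, 31.6, 38.9 and 28.0 CPM at day 0. At day 1 they were 62.6 and 66.1 CPM in the 3-digit set and 43.9, 41.7 and 42.5 CPM in the 1-digit set. At day 3 they were 43.2, 37.2, 36.7, 32.7 and 52.4 CPM. All libraries of day 1 lay above day 0, those with 3-digit numbers the highest, which is the reverse of the order seen for Mdm2 and Cdkn1a. The rise at day 1 was 1.55-fold (log2 fold change 0.63, standard error 0.18, adjusted p = 0.0134, edgeR), with 0.96 in the 3-digit set (adjusted p = 0.000762) and 0.37 in the 1-digit set (adjusted p = 0.0553). By day 3 the difference from day 0 was 0.29 on the log2 scale (adjusted p = 0.235).

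Bbc3 (ENSMUSG00000002083.13, chr7:16308393-16318205, plus strand) encodes PUMA, a BH3-only protein that frees BAX to act. It was scarce, at 3.57, 2.18, 1.71 and 3.02 CPM at day 0. At day 1 it stood at 3.34 and 4.09 CPM in the 3-digit set and at 9.20, 7.66 and 6.52 CPM in the 1-digit set. At day 3 it stood at 4.48, 6.42, 4.46, 3.83 and 4.04 CPM. The 3-digit set of day 1 reached into the range of day 0 while the 1-digit set was clear of it, and all 5 libraries of day 3 lay above day 0. Bbc3 was 2.34-fold higher at day 1 (log2 fold change 1.23, standard error 0.33, adjusted p = 0.00887, edgeR), with 1.57 in the 1-digit set (adjusted p = 0.000239) and 0.50 in the 3-digit set (adjusted p = 0.19). The day 3 difference of 0.83 (standard error 0.33, adjusted p = 0.0643) was not called with the formats pooled. It was called with total counts (adjusted p = 0.0273), DESeq2 (0.0452), only the 2 days compared (0.0433) or the format as a term (0.0315). In the 3-digit set of day 3 it was 0.96 (adjusted p = 0.0136).

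Trp53inp1 (ENSMUSG00000028211.11, chr4:11156431-11174379, plus strand) encodes a stress-induced nuclear protein that enhances p53 activity. Day 0 libraries held 57.9, 63.2, 60.6 and 40.3 CPM. Day 1 libraries held 48.3 and 32.4 CPM with 3-digit numbers and 85.9, 271 and 134 CPM with 1-digit numbers. Day 3 libraries held 158, 36.3 and 57.5 CPM with 3-digit numbers and 123 and 68.6 CPM with 1-digit numbers. Its replicates varied the most of the 10 genes at day 1, with a coefficient of variation of 83.8%, and at both days some libraries lay above and others below the range of day 0. Neither day was called (log2 fold change 1.04, standard error 0.54, adjusted p = 0.133 at day 1, and 0.68, standard error 0.54, adjusted p = 0.343 at day 3, edgeR). In the 1-digit set of day 1 it was higher than at day 0 (1.56, adjusted p = 0.0099), while the 3-digit set gave -0.46 (adjusted p = 0.509). Without replicate 2 of day 1 the pooled difference was called (1.28, adjusted p = 0.0487), as it was with the format as a term (1.26, adjusted p = 0.0438), while without replicate 4 of day 1, the library at 271 CPM, it was 0.44 (adjusted p = 0.476).

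Phlda3 (ENSMUSG00000041801.5, chr1:135766119-135769136, plus strand) encodes a small pleckstrin homology domain protein that keeps the kinase AKT from the membrane. Its levels at day 0 were 5.87, 6.65, 6.44 and 6.83 CPM. At day 1 they were 12.4 and 19.3 CPM in the 3-digit set and 7.56, 10.7 and 8.69 CPM in the 1-digit set. At day 3 they were 14.8, 12.7, 12.6, 7.60 and 17.6 CPM. Every injured kidney library lay above every day 0 library. The rise was 1.83-fold at day 1 (log2 fold change 0.87, standard error 0.28, adjusted p = 0.0224) and 2.02-fold at day 3 (1.02, standard error 0.28, adjusted p = 0.0134) in edgeR's test, and Phlda3 was called within both formats at day 3 (0.96 and 1.05 in the 1-digit and 3-digit set). The call at day 1 was lost without replicate 1 of day 0 (adjusted p = 0.061), replicate 3 of day 0 (adjusted p = 0.0516) or replicate 2 of day 1 (adjusted p = 0.0514). Within the sets of day 1 the log2 fold change was 1.30 with 3-digit numbers (adjusted p = 0.00243) and 0.48 with 1-digit numbers (adjusted p = 0.118). With the format as a term the day 1 value was 0.64 (adjusted p = 0.0545). At day 3 the call held without any single library.

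The remaining pair, Sesn2 and Gdf15, answer to ATF4 as well as to p53, and are given together. Sesn2 (ENSMUSG00000028893.8, chr4:132492032-132510501, minus strand) encodes sestrin 2, which restrains the growth kinase mTORC1. It was measured at 52.9, 42.1, 55.2 and 44.4 CPM at day 0. At day 1 its levels were 39.0, 28.4, 50.2, 50.8 and 41.7 CPM. At day 3 its levels were 53.9, 34.2, 34.3, 77.5 and 51.3 CPM. The 3 days overlapped, although the 3-digit set of day 1, at 39.0 and 28.4 CPM, lay wholly below day 0. It was called at neither day, with a log2 fold change of -0.21 (standard error 0.23, adjusted p = 0.479) at day 1 and of 0.05 (adjusted p = 0.895, standard error 0.23) at day 3 in edgeR, nor within either format. At day 1 the 1-digit set gave -0.03 (adjusted p = 0.9) and the 3-digit set -0.53 (adjusted p = 0.0772). At day 3 they gave 0.40 (adjusted p = 0.134) and -0.25 (adjusted p = 0.348).

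Gdf15 (ENSMUSG00000038508.7, chr8:70629393-70632456, minus strand) encodes a secreted stress cytokine. Its day 0 levels kept to a narrow range of 7.25, 7.89, 7.45 and 6.83 CPM. At day 1 they were 149, 97.7, 90.2, 91.9 and 99.98 CPM. At day 3 they were 24.8, 32.8, 44.1, 37.3 and 107 CPM. The lowest injured library, at 24.8 CPM, lay clear of the highest day 0 library, at 7.89 CPM, and replicate 5 of day 3 alone remained at the level of day 1. Gdf15 was 14.4-fold higher at day 1 (log2 fold change 3.85, standard error 0.39, adjusted p = 1.8e-05) and 6.68-fold higher at day 3 (2.74, standard error 0.37, adjusted p = 0.000175) in edgeR's test, and it was called within both formats on both days, with log2 fold changes from 2.20 to 4.07. Of the 8 genes of the integrated stress response list, 7 were higher at day 1, with a list median log2 fold change of 3.01, and the other was Sesn2 (23.3% of all genes were higher). At day 3, 3 of the 8 were higher and the median was 1.25 (19.5% of all genes were higher). Within the sets, 7 of the 8 were higher at day 1 in each. The medians were 2.73 in the 1-digit and 2.12 in the 3-digit set (of all genes, 28.9% and 22.6% were higher). At day 3, 6 were higher in the 1-digit set, with a median of 2.10, and 3 in the 3-digit set, with a median of 0.40 (of all genes, 28.6% and 19.1% were higher). Between formats at day 1, 5 of the 8 were lower and 1 higher in the 3-digit set (16.4% and 18.6% of all genes). The part of that pathway in the rise of Gdf15 was not tested.

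**Figure D2:**
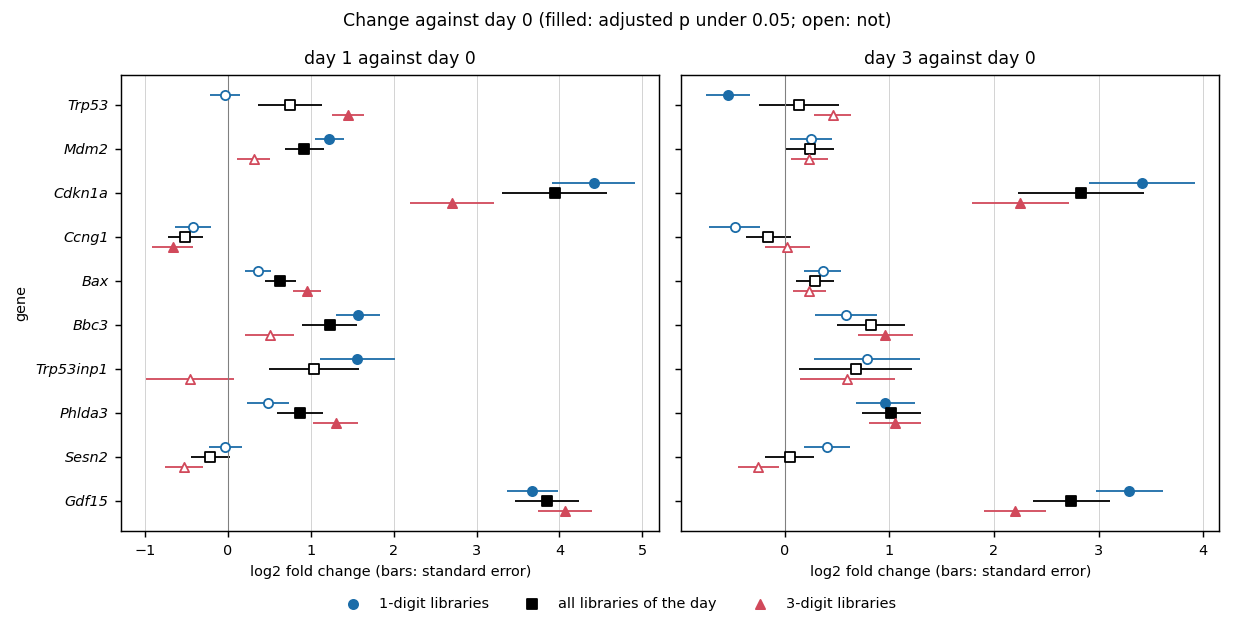
Log2 fold change against day 0 of each of the 10 genes at day 1 (left) and day 3 (right), for all libraries of the day (squares), 1-digit libraries (circles) and 3-digit libraries (triangles), with bars of 1 standard error and filled symbols where the adjusted p from edgeR was under 0.05. Cdkn1a and Gdf15 lie at 2.20 or above in every group of libraries, whereas Trp53 and Trp53inp1 lie on both sides of 0 at day 1.

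From day 1 to day 3, 0 of the 10 genes rose and 2 fell (15.9% of all genes were called, 8.52% higher and 7.39% lower). Gdf15 fell by 1.11 on the log2 scale (standard error 0.32, adjusted p = 0.0303, edgeR). Mdm2 fell by 0.68 (standard error 0.22, adjusted p = 0.0473). Cdkn1a gave a log2 fold change of -1.11 with a wider spread (standard error 0.52, adjusted p = 0.156). Both calls were fragile. That of Mdm2 was lost without any one of 11 libraries (adjusted p from 0.057 to 0.121) and held only without replicate 1 of day 1, replicate 2 of day 1 or replicate 5 of day 3. That of Gdf15 was lost without replicates 1, 4 or 5 of day 1 or replicates 1, 2, 3 or 4 of day 3 (adjusted p from 0.0507 to 0.0701).

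The formats gave different values for day 3 against day 1 in edgeR fits of each set alone. With only the 3-digit set of these days Gdf15 gave -1.87 (adjusted p = 0.00217) and Mdm2 -0.0782 (adjusted p = 0.756). With only the 1-digit set Gdf15 gave -0.40 (adjusted p = 0.354) and Mdm2 -0.99 (adjusted p = 0.00717). With the format as a term the call of Gdf15 held (-1.12, adjusted p = 0.0228) and that of Mdm2 was lost (-0.52, adjusted p = 0.0792). Trp53 itself, not called with the formats pooled, was lower at day 3 than at day 1 in both sets, at -0.52 in the 1-digit set (adjusted p = 0.029), -0.996 in the 3-digit set (adjusted p = 0.0161) and -0.76 with the format as a term (adjusted p = 0.00749). Cdkn1a (-1.01, adjusted p = 0.0292) and Bbc3 (-1.001, adjusted p = 0.0309) were also called lower in the 1-digit set, and Bax (-0.72, adjusted p = 0.0116) in the 3-digit set. Their values in the other set were -0.45 for Cdkn1a (adjusted p = 0.641), 0.46 for Bbc3 (adjusted p = 0.394) and -0.0209 for Bax (adjusted p = 0.945).

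Within day 1 the members split by library number format. In the 3-digit set, 3 of the 10 genes were higher than in the 1-digit set and 4 were lower (35% of all genes were called, 18.6% higher and 16.4% lower). Trp53 was 2.80-fold higher in the 3-digit set (log2 difference 1.49, standard error 0.21, adjusted p = 0.000418, edgeR, 1 term for each set of each day), and Bax (0.59, adjusted p = 0.0226) and Phlda3 (0.82, adjusted p = 0.045) were higher with it. Lower were Trp53inp1 (-2.02, standard error 0.59, adjusted p = 0.0182), Cdkn1a (-1.71, standard error 0.58, adjusted p = 0.0355), Bbc3 (-1.07, standard error 0.32, adjusted p = 0.02) and Mdm2 (-0.91, standard error 0.22, adjusted p = 0.00639). So the day 1 libraries with the most Trp53 RNA had the least Cdkn1a, Mdm2, Bbc3 and Trp53inp1 RNA, and the ranges of the formats did not meet in 9 of the 10 genes, with 3 wholly above and 6 wholly below the 1-digit set (of all genes tested, 31.2% lay wholly above and 29.4% wholly below). The call for Trp53 held without any single library. That for Mdm2 was lost only without replicate 2 of day 1 (adjusted p = 0.0573). The others were less stable. With all libraries kept, Phlda3 lost its call with RLE size factors (0.77, adjusted p = 0.0536) and Bbc3 with total counts (-0.85, adjusted p = 0.0544). Cdkn1a lost its call without replicates 1, 2, 4 or 5 of day 1 (adjusted p from 0.057 to 0.242), Bax without the same replicates (0.0536 to 0.131), Bbc3 without replicates 1, 2 or 3 (0.0576 to 0.116), Trp53inp1 without replicates 1, 2 or 4 (0.054 to 0.15), and Phlda3 without replicates 2, 3 or 5 of day 1, any one of day 0 or replicate 3 of day 3 (0.0538 to 0.407).

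At day 3 the difference between formats was called in 2 of the 10 genes, 1 higher and 1 lower (18.5% of all genes called, 10.3% higher and 8.22% lower). Trp53 was again higher in the 3-digit set, by 1.00 on the log2 scale (standard error 0.22, adjusted p = 0.0123, edgeR), a call that was lost without replicate 4 (adjusted p = 0.0585) or replicate 5 of day 3 (adjusted p = 0.0661). Gdf15 was lower there, with a log2 difference of -1.09 (standard error 0.33, adjusted p = 0.0391), which was -0.16 without replicate 5 of day 3 (adjusted p = 0.766). That call was also lost without replicates 1 or 2 of day 3, replicate 5 of day 1 or replicates 1, 2 or 3 of day 0 (adjusted p from 0.0517 to 0.0938), and with total counts (adjusted p = 0.0543). Cdkn1a gave -1.16 (standard error 0.54, adjusted p = 0.139). Without replicate 1 of day 3 it gave -1.92 (adjusted p = 0.012), as Sesn2 then gave -0.91 (adjusted p = 0.00813). Sesn2 was also called with DESeq2 (-0.66, adjusted p = 0.0462). The difference between formats at day 3 differed from that at day 1 in 2 of the 10 genes (17.6% of all genes called, 9.1% upward and 8.45% downward), Bbc3 by 1.44 (standard error 0.45, adjusted p = 0.0408) and Gdf15 by -1.48 (standard error 0.47, adjusted p = 0.0443). These calls varied with the setting. Gdf15 was lost with RLE size factors (-1.44, adjusted p = 0.0505) and Bbc3 with total counts (1.27, adjusted p = 0.0685). Mdm2 was called with RLE size factors (0.95, adjusted p = 0.0436), with 10 counts in every library (0.91, adjusted p = 0.0429) and with DESeq2 (0.95, adjusted p = 0.0199), and Bax with total counts (-0.90, adjusted p = 0.033). With 1 library left out, Mdm2 was called without replicates 2 or 5 of day 3 (1.01 and 1.40, adjusted p = 0.04 and 0.00553), and Bax and Phlda3 without replicate 4 of day 3 (-1.02 and -1.21, adjusted p = 0.00993 and 0.0295).

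**Figure D3:**
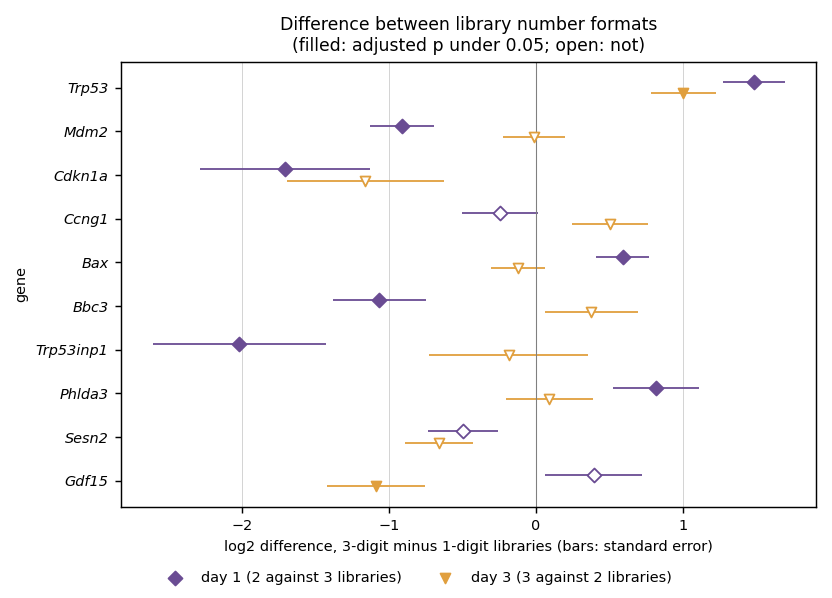
Log2 difference of the 3-digit from the 1-digit libraries for each of the 10 genes within day 1 (diamonds, 2 against 3 libraries) and day 3 (triangles, 3 against 2 libraries), with bars of 1 standard error and filled symbols where the adjusted p from edgeR was under 0.05. Trp53 lies at 1.49 and 1.00 to the right of 0 and Cdkn1a at -1.71 and -1.16 to the left.

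Cell type markers also moved with day and format. Over all genes, 23.3% were called higher and 18.7% lower at day 1, 19.5% and 13.8% at day 3, and between formats 18.6% and 16.4% at day 1 and 10.3% and 8.22% at day 3. The 10 proximal tubule markers, all present on every day, summed to 14346 to 15707 CPM at day 0, to 9037 to 13904 CPM in the 1-digit and 3325 to 4046 CPM in the 3-digit set of day 1, and to 2439 to 3711 CPM in the 1-digit and 5882 to 12237 CPM in the 3-digit set of day 3. By edgeR 4 of the 10 were lower at day 1 and 5 at day 3 than at day 0. Between formats 6 of the 10 were lower in the 3-digit set at day 1 and 5 were higher at day 3. The 7 genes of proliferating cells summed to 9.49 to 31.5 CPM at day 0, 15.3 to 48.6 CPM at day 1, 20.5 to 51.8 CPM in the 1-digit set of day 3 and 278 to 502 CPM in the 3-digit set of day 3, and all 7 were higher at day 3 than at day 0. Myeloid markers summed to 123 to 198 CPM at day 0 and 73.7 to 118 CPM at day 1, where 3 of 8 were higher and 1 lower. At day 3 they summed to 129.99 to 153 CPM in the 1-digit set, inside the range of day 0, and to 271 to 433 CPM in the 3-digit set (5 of 8 higher and 1 lower for the whole day). Smooth muscle markers summed to 142 to 169.8 CPM at day 0, 309 to 398 CPM and 487 to 578 CPM in the 1-digit and 3-digit set of day 1, and 777 to 958 CPM and 289 to 347 CPM in those of day 3, with 3 of 6 higher than at day 0 on either day. Urothelial markers summed to 1.82 to 46.1 CPM at day 0 and to 16.7 to 108 CPM in the 3-digit set of day 1 against 4.84 to 7.72 CPM in the 1-digit set, with 1.01 to 47.8 CPM at day 3. Of the 8 markers of other nephron segments 3 were lower at day 1 and 4 at day 3 than at day 0, with sums of 7078 to 9742, 3916 to 6369 and 2407 to 3917 CPM on the 3 days. Adrenal cortex markers summed to at most 2.35 CPM, with Cyp11b2 at 0 in every library and Cyp11b1 and Hsd3b6 at 0 in all of day 0 and day 1. The part of these shifts in the levels of the 10 genes was not tested.

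A list of 32 further p53 targets, drawn up from general knowledge with earlier results of these data known, was examined in the same fit. Of the 29 that could be tested, 16 were higher and 4 lower at day 1, with a median log2 fold change of 0.45, and 8 were higher and 1 lower at day 3, with a median of 0.47. Over all genes tested 23.3% were higher and 18.7% lower at day 1, and 19.5% and 13.8% at day 3. In the 1-digit set 14 were higher and 5 lower at day 1 (median 0.55) and 14 higher and 2 lower at day 3 (median 0.69), where 28.9% and 29.6% of all genes were higher and lower at day 1 and 28.6% and 25.1% at day 3. In the 3-digit set 11 were higher and 4 lower at day 1 (median 0.34) and 8 higher and 1 lower at day 3 (median 0.32), against 22.6% and 19% of all genes at day 1 and 19.1% and 13.3% at day 3. The others (Ptprv, Trp53cor1 and Gls2) were too low to test. At day 1 the most increased was Sfn, the gene of stratifin, which blocks entry into mitosis, from 1.74 ± 1.21 CPM (SD, n = 4) at day 0 to 35.5 ± 10.8 CPM (n = 5). Its log2 fold change was 4.35 (standard error 0.46, adjusted p = 2.47e-05, edgeR), and it was 3.28 at day 3 (adjusted p = 0.000183). Plk3, a stress-responsive polo-like kinase, rose from 23.0 ± 2.93 to 224 ± 159 CPM (log2 fold change 3.28, adjusted p = 0.000401) and was back at 35.2 ± 14.1 CPM at day 3 (0.61, adjusted p = 0.334). Btg2, an antiproliferative gene, rose by 2.46 at day 1 (adjusted p = 0.000355) and was still up by 1.72 at day 3 (adjusted p = 0.004). Pmaip1, which encodes the BH3-only protein NOXA, rose from 17.7 ± 3.15 to 78.0 ± 52.3 CPM (2.14, adjusted p = 0.00216).

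At day 3 the largest rises after Sfn were those of 2 receptors of the tumor necrosis factor receptor family and Btg2. Eda2r, the ectodysplasin A2 receptor, went from 1.05 ± 0.495 CPM at day 0 to 5.03 ± 2.72 CPM (log2 fold change 2.26, standard error 0.56, adjusted p = 0.00735, edgeR). Tnfrsf10b, the TRAIL receptor, went from 2.95 ± 0.411 to 6.89 ± 2.17 CPM (1.22, adjusted p = 0.00242). The 4 targets that fell at day 1 were Zfp365 and 3 genes of DNA synthesis and repair. Zfp365 dropped from 5.26 ± 2.55 to 0.711 ± 0.382 CPM (-2.88, adjusted p = 0.00024) and was also the 1 target called lower at day 3 (-2.04, adjusted p = 0.00239). Rrm2b, a p53-inducible subunit of ribonucleotide reductase, dropped from 35.3 ± 2.95 to 14.9 ± 7.83 CPM (-1.24, adjusted p = 0.00953). Polk, a translesion DNA polymerase, gave -1.01 (adjusted p = 0.0264) and Xpc, the damage sensor of nucleotide excision repair, gave -0.52 (adjusted p = 0.0047).

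**Figure D4:**
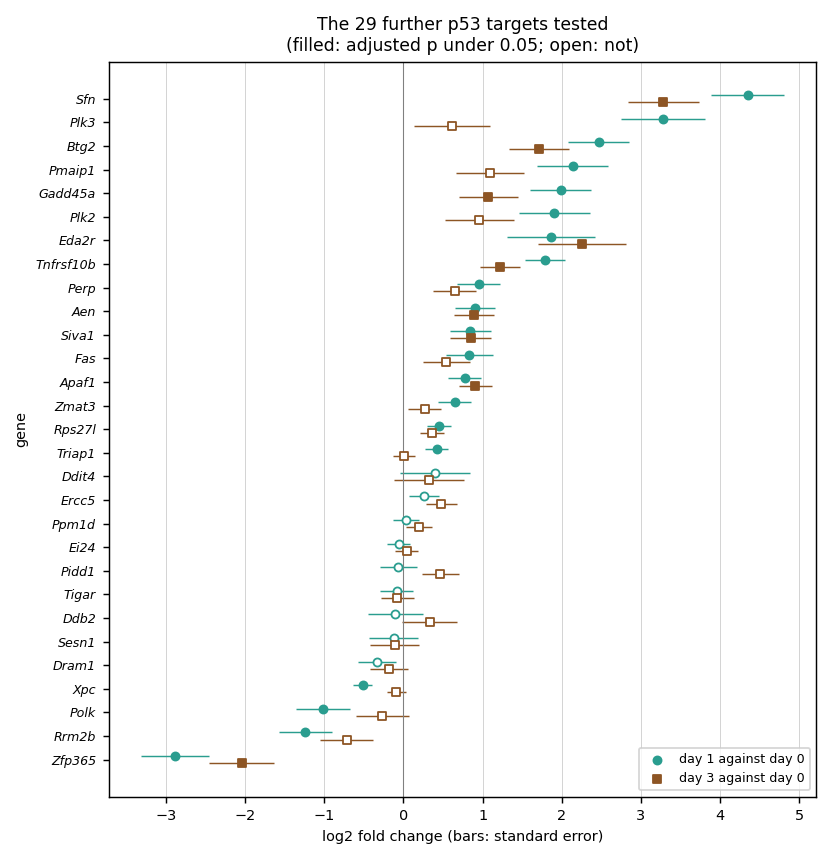
Log2 fold change against day 0 of the 29 further p53 targets tested, at day 1 (circles) and day 3 (squares), with bars of 1 standard error and filled symbols where the adjusted p from edgeR was under 0.05. The targets run from Sfn at 4.35 to Zfp365 at -2.88 at day 1, with 16 called higher and 4 called lower.

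Between formats at day 1, 6 of the 29 further targets were higher and 6 lower in the 3-digit set, close to the shares over all genes (18.6% higher and 16.4% lower). They included Plk3 (log2 difference -2.07, adjusted p = 0.00251, edgeR) and Pmaip1 (-2.07, adjusted p = 0.000304) on the side of Cdkn1a, and Rrm2b (1.33, adjusted p = 0.00127), Polk (1.40, adjusted p = 0.00134) and Eda2r (1.40, adjusted p = 0.028) on the side of Trp53. The largest difference on that side was that of Ddb2, a subunit of the UV damage sensor, at 1.55 (adjusted p = 0.000415), a gene named here after its value was seen. Sfn (0.36, adjusted p = 0.558) and Btg2 (0.93, adjusted p = 0.102) were not called between formats.

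Genes that act on p53 were examined in the same way. Of 17 regulators and relatives of p53, 15 were tested (not Cdkn2a and Trp73). At day 1 there were 2 higher and 3 lower, and at day 3 there were 0 higher and 1 lower (over all genes, 23.3% higher and 18.7% lower at day 1, and 19.5% and 13.8% at day 3). Their median log2 fold changes were -0.29 and 0.05. Within the 1-digit set 4 were higher and 7 lower at day 1, against 28.9% and 29.6% of all genes. At day 3, 3 were higher and 2 lower there, against 28.6% and 25.1% of all genes. Within the 3-digit set 2 were higher and 4 lower at day 1, against 22.6% and 19% of all genes. At day 3, 3 were higher and 1 lower there, against 19.1% and 13.3% of all genes. Ppp1r13l, which encodes the p53 inhibitor iASPP, rose from 5.62 ± 1.64 to 27.3 ± 10.96 CPM at day 1 (2.28, standard error 0.41, adjusted p = 0.00084, edgeR). Kat5, an acetyltransferase that modifies p53, rose by 0.37 (adjusted p = 0.0366). Atm, the kinase that signals DNA breaks to p53, fell from 25.3 ± 2.25 to 11.97 ± 7.40 CPM (-1.07, adjusted p = 0.0362), and Hipk2, another kinase of p53, fell from 19.4 ± 2.66 to 11.6 ± 4.13 CPM (-0.75, adjusted p = 0.0232). The ubiquitin ligase gene Rfwd2, also called Cop1, was lower on both days, with 70.5 ± 6.76, 49.5 ± 4.70 and 53.5 ± 6.89 CPM at day 0, day 1 and day 3 (-0.51, adjusted p = 0.00516, and -0.40, adjusted p = 0.0235). Between formats at day 1, 3 of the 15 were higher and 6 lower in the 3-digit set (18.6% and 16.4% of all genes). The largest difference was that of Trp63, which encodes the p53 relative p63, at 3.45 (adjusted p = 0.00419), a gene at 1.37 ± 1.93 CPM at day 1 that is named here after its value was seen. Ppp1r13l gave -1.05 (adjusted p = 0.0391). Atm was 1.57 higher on the log2 scale in the 3-digit than in the 1-digit set of day 1 (adjusted p = 0.00273), in the direction of Trp53, whereas Hipk2 was lower there (-0.998, adjusted p = 0.00237).

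The genes whose pattern lay nearest to that of Cdkn1a were sought among 14290 genes outside the 10, with each gene taken as its log2 CPM less its own mean at day 0. Sphk1, which encodes a sphingosine kinase, differed from Cdkn1a by a mean of 0.36 on the log2 scale over the 14 libraries, Map3k6 by 0.37 and Hilpda, a hypoxia-inducible lipid droplet gene, by 0.41. Sphk1 went from a mean of 7.27 CPM at day 0 to 162 CPM at day 1 and 48.2 CPM at day 3. Of the other 9 genes Gdf15 was nearest, at 0.75, and Ccng1 farthest, at 2.55. This measure is a description, and the libraries it runs over share day and format.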

How the data were processed

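Kidney RNA was isolated by TRIzol, followed by Illumina TruSeq library preparation. Per the submitters' processing notes, reads were trimmed with Trimmomatic and aligned with STAR to mm10. Their versions, and which annotation was used, are not given in the sources used here. The authors deposited 1 table of read counts per library, with 24411 genes and no normalization. The strand column that held 98.5% to 98.7% of the strand-assigned reads was used. Entries that name no gene (29.0% to 38.3% of a library) were left out. No 2 replicates matched within sampling noise (chi-square over its degrees of freedom, 5.95 to 241).

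Tests were run by edgeR 4.0.16 under R 4.3.3 (filterByExpr by day, TMM, quasi-likelihood test) over all 14 libraries, with 1 term per day or 1 per day and number format, since the methods text used here gives no design for these counts. Standard errors come from the F value. Log2 CPM used a prior count of 2. The members and gene lists were chosen with earlier results of these data known. All members are named with values. Of the further targets, up to 4 genes, and of the regulators up to 2, are named per direction and day by size among those called. On simulated counts for 14174 genes with 200 changed by a log2 fold change of 2 between day 1 and day 0, edgeR recovered 181 with 8 false calls, and DESeq2 1.42.0 recovered 182 with 26. The simulated libraries had no format difference, and 42.1% of genes were called at day 1 here, so these rates need not hold for the data. Gene positions are from GENCODE for GRCm38. Alternatives were the unstranded column, other scalings and filters, DESeq2, other sets of libraries or terms, and leaving out each library in turn.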

Additional observations from a re-analysis of the deposited data

Results flagged for a closer look

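Gdf15 in replicate 1 of day 1, at 149 CPM, stood apart from the other 4 libraries of day 1, at 90.2 to 100 CPM (gap over range 0.796). It was the 1 library found among 30 groups of values tested, where chance gives about 1.5.

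The difference between library number formats was not the same on both days for Bbc3, by 1.44 on the log2 scale (adjusted p = 0.0408, edgeR), and for Gdf15, by -1.48 (adjusted p = 0.0443). Bbc3 was lower in the 3-digit libraries at day 1 (-1.07, adjusted p = 0.02) and gave 0.38 at day 3 (adjusted p = 0.408). Gdf15 gave 0.39 at day 1 (adjusted p = 0.377) and -1.09 at day 3 (adjusted p = 0.0391). Without replicate 5 of day 3 the value of Gdf15 was -0.54 (adjusted p = 0.324), and without replicate 1 of day 1 it was -1.12 (adjusted p = 0.186). Its call was lost without any one of 11 libraries, and that of Bbc3 without any one of 8 (adjusted p from 0.0534 to 0.134).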

How the results depend on the processing

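Over 11 settings and 14 libraries left out in turn, Cdkn1a and Gdf15 stayed higher at day 1 and day 3 and Phlda3 at day 3, all past the threshold. At day 1 the count of members changed ran from 5 to 7, against 6 (over all genes from 4759 to 8839, against 6020). Lone libraries left in an arm were assumed to vary like the others. Within formats, Mdm2 and Bbc3 at day 1 lost their calls with only the 3-digit libraries (adjusted p = 0.0977 and 0.232) and Bax and Phlda3 with only the 1-digit libraries (0.0547 and 0.103, edgeR). The causes were not tested. Counting error was largest for Bbc3, which had the fewest reads.

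Members changed between day 3 and day 0 numbered 5 with the number format as a term, against 3. Those added were Trp53, lower at -0.69 (adjusted p = 0.0109, edgeR), and Bbc3, higher at 1.07 (adjusted p = 0.0315). Between day 3 and day 1, against 2, members changed numbered 0 with total counts or with only the 2 days compared. With only those days 831 of all genes were called, against 2276. Members changed numbered 1 without a filter, 1 with the replicate block and 4 with only 1-digit libraries (5194 of all genes). With a library left out they numbered 0 to 2 (1269 to 3350 of all genes). For the format difference of day 1, against 7, they ran from 1 to 7 with a library left out (1997 to 5602 of all genes). For that of day 3, against 2, they were 1 with total counts and ran from 0 to 3 with a library left out (91 to 4771 of all genes). For the difference between those they ran from 0 to 3 with a library left out (1260 to 3148 of all genes). Correlations of same-numbered libraries ran from -0.175 to 0.261, and those of differently numbered libraries from -0.499 to 0.534. These correlations include the format difference, so they cannot tell whether the numbers pair the libraries. The block gave 5, 3 and 1 members changed in the 3 comparisons of days (Phlda3 at day 1 at an adjusted p of 0.0519, edgeR) and was not run for the formats.

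Some directions turned, all in uncalled values unless an adjusted p is given. With only 1-digit libraries Trp53 gave -0.0027 at day 1 and -0.53 at day 3 (adjusted p = 0.0143), Sesn2 0.0015 at day 1, and Ccng1 -0.0747 for day 3 against day 1. With only 3-digit libraries Trp53inp1 gave -0.46 at day 1 and 1.06 for day 3 against day 1, Ccng1 0.0266 and Sesn2 -0.25 at day 3, and Bbc3 0.46 and Phlda3 -0.25 for day 3 against day 1. With the format as a term Sesn2 gave 4.3e-05 at day 1, Trp53 -0.69 at day 3 (adjusted p = 0.0109) and Trp53inp1 0.14 for day 3 against day 1. Sesn2 gave -0.0186 at day 3 with the replicate block. With 1 library left out, Trp53 ran from -0.056 to 0.296 at day 3 (below 0 without replicates 2 or 3 of day 3) and Sesn2 from -0.163 to 0.157 (below 0 without replicate 2 of day 0 or replicate 4 of day 3). For day 3 against day 1, Phlda3 ran from -0.0015 (without replicate 5 of day 3) to 0.407 and Trp53inp1 from -0.679 to 0.238 (without replicate 4 of day 1). For the format difference of day 3, Mdm2 gave 0.0141 with total counts, 0.0062 without a filter and 0.00198 with 10 counts in every library. With 1 library left out it ran from -0.394 to 0.481, Bax from -0.427 to 0.236, Phlda3 from -0.392 to 0.796 and Trp53inp1 from -1.03 to 0.293. For the difference of the format differences, Cdkn1a ran from -0.215 (without replicate 1 of day 3) to 1.06 and Sesn2 from -0.439 to 0.168 (above 0 without replicate 1 of day 1 or replicate 4 of day 3).

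Over all genes, the count changed at day 3 was 8119 with only 1-digit libraries, against 4757. Between day 3 and day 1, against 2276, it was 831 with only the 2 days, 5194 with only 1-digit libraries and 1269 to 1460 without replicates 3, 4 or 5 of day 1 or 1 or 3 of day 3. Between formats it was 1997 without replicate 2 of day 1 (against 5001), and at day 3, against 2645, 4771, 1176, 1144 and 91 without replicates 1, 2, 3 and 5. For the difference of the format differences, against 2510, it was 1260 and 1613 without replicates 1 and 2 of day 1. Total counts without TMM moved the median log2 fold change of all genes to 0.19 at day 3, 0.17 for day 3 against day 1, 0.24 between formats at day 1 and -0.19 for the difference of the format differences, and the share of calls that were higher from 58.5% to 73.8%, 53.6% to 77.9%, 53.1% to 73.1% and 51.9% to 34.99%.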
